A study of Mus musculus with 4 samples.

Results

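A set of 9 chemokine receptor genes that steer lymphocytes into and within tissues was examined in Mnk3 cells: Cxcr3, Cxcr4, Cxcr5, Cxcr6, Ccr2, Ccr4, Ccr6, Ccr8 and Ccr9. The members were taken by name from a list and are 9 of the 41388 genes in the count tables. Mnk3 is an ILC3-like mouse line, ILC3 being the innate lymphoid cells of group 3, and a single line stands here for that cell type. Total RNA depleted of ribosomal RNA was sequenced from 2 libraries of cells given IL-1b and IL-23, each at 10 ng/ml, for about 16 h (stimulated 1 and 2) and from 2 libraries of untreated cells (control 1 and 2). No genotype or other treatment is stated for either group, and all 4 libraries come from the same line. Only the libraries numbered 1 carry a replicate label, rep1 in their titles, and the number 2 was given here to the others. The labels do not tell whether the libraries of a group were separate cultures, so the p-values measure the spread between libraries, which may be technical.

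Chemokine receptors are membrane proteins that couple to inhibitory G proteins and direct a cell up a gradient of their ligands. Each receptor is tied to particular tissues. CXCR5 and its ligand CXCL13 mark B cell follicles, CCR6 and CCL20 guide ILC3 of the lymphoid tissue inducer type to intestinal lymphoid clusters, CXCR6 and CXCL16 position innate lymphocytes in the gut lining, and CXCR4 binds CXCL12 of marrow and stroma. CXCR3 draws cells to sites rich in interferon-induced chemokines, CCR4 and CCR8 are linked to skin, CCR9 to the small intestine and CCR2 to inflamed tissue.

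Stimulation with IL-1b and IL-23 lowered all 4 CXC receptors of the set and raised 1 CC receptor. Cxcr3, Cxcr5, Cxcr4 and Cxcr6 fell, by 13.4-fold, 7.05-fold, 4.06-fold and 1.82-fold, and Ccr4 rose 16.0-fold. Ccr6, Ccr2 and Ccr9 did not pass the test, and Ccr8 had too few counts to enter it. The test was edgeR's quasi-likelihood test on the counts with Benjamini-Hochberg adjustment over all 13838 genes that passed a filter on low counts, called at an adjusted p under 0.05. Of the 8 members tested, 1 was higher and 4 were lower, against 17.5% of all tested genes called higher, 18.3% called lower and 35.8% called in either direction. The median change of the 8 was -0.81 on the log2 scale, beside -0.016 over all genes tested. In 5 of the 8 the stimulated and control libraries did not overlap, as was true of 70.7% of all genes tested. The members, and the gene lists below, were chosen with earlier results of these data known. Counts and medians set beside those of all genes are therefore a description and not a test of the set. Because the cells were measured in bulk, fewer cells carrying a transcript and less of it per cell cannot be told apart.

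**Figure D1:**
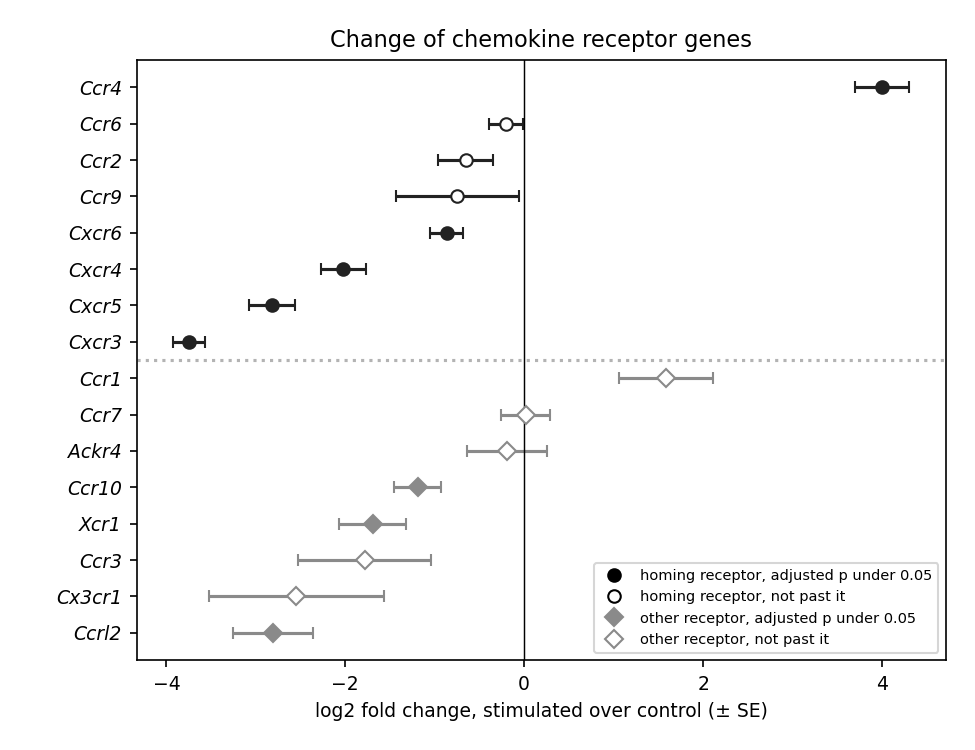
Log2 fold change of stimulated over control cells (x axis, ± SE) for the 8 homing receptors tested (circles) and 8 other chemokine receptors tested (diamonds); filled symbols passed an edgeR adjusted p under 0.05. Ccr4 stands at 4.0 and Cxcr3 at -3.75, the highest and lowest of the homing receptors.

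CPM here means counts relative to library size after TMM scaling (trimmed mean of M-values). A change is the log2 of the stimulated over the control level, and its approximate SE was taken from the F statistic of the test. Summed gene counts were between 23047723 and 29078765 per library. The stimulus was checked on Il22 and Il17f, which code for cytokines of ILC3. They rose by 8.81 ± 0.46 and 7.71 ± 0.37.

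Cxcr3 had the steepest fall. This receptor lies on chromosome X from 101731535 to 101734269, minus strand, in the coordinates of the count tables. It had 73 and 66 counts in stimulated 1 and 2, against 1223 and 1086 counts in control 1 and 2. As CPM these were 2.89 and 2.89 in the stimulated libraries and 40.6 and 37.1 in the controls, so both stimulated libraries lay far below both controls and libraries of a group were close to each other. The change was -3.75 ± 0.18 (edgeR adjusted p = 0.000134).

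Cxcr5, on chromosome 9 from 44511788 to 44556391, minus strand, had 22.6 and 13.4 CPM in stimulated 1 and 2 and 123 and 131 CPM in control 1 and 2. The groups were well apart, although stimulated 2 was lower than stimulated 1. The change was -2.82 ± 0.26 (edgeR adjusted p = 0.000748). Cxcr4, on chromosome 1 from 128588199 to 128592293, minus strand, had 36.1 and 52.2 CPM in the stimulated libraries against 146 and 212 CPM in the controls. In both groups the library numbered 2 was the higher, yet no stimulated library reached a control. The change was -2.02 ± 0.25 (edgeR adjusted p = 0.00227).

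Cxcr6 was the most abundant of the receptors and had the smallest of the called falls. It lies on chromosome 9 from 123806477 to 123811754, plus strand. It had 511 and 585 CPM in stimulated 1 and 2 and 871 and 1125 CPM in control 1 and 2, so the groups did not overlap. The change was -0.87 ± 0.18 (edgeR adjusted p = 0.0118), and without stimulated 1 the adjusted p was 0.0499. The listed span of Cxcr6 lies inside that of Fyco1, an autophagy adaptor gene on the opposite strand, with no overlap of exons. Fyco1 itself fell, with 39.0 ± 1.83 CPM in stimulated and 72.7 ± 8.79 CPM in control cells (-0.90 ± 0.15, edgeR adjusted p = 0.00488; SD, n = 2 each), far below the level of Cxcr6. Whether counting used strand is unknown here, and the part of Fyco1 reads in the Cxcr6 counts was not tested.

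Ccr4, the receptor of CCL17 and CCL22, went the other way. It lies on chromosome 9 from 114490316 to 114496544, minus strand. It had 897 and 581 counts in the stimulated libraries and 70 and 43 counts in the controls, or 35.5 and 25.4 CPM against 2.32 and 1.47 CPM. Both stimulated libraries lay far above both controls. The change was 4.0 ± 0.30 (edgeR adjusted p = 0.000393). Ccr4 and the 4 falling CXC receptors kept their calls in every one of 13 alternatives each, which comprised other scalings, filters and tests and each library left out in turn.

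Ccr6, Ccr2 and Ccr9 did not pass. Ccr6, on chromosome 17 from 8236043 to 8257127, plus strand, had 125 and 88.6 CPM in stimulated 1 and 2 and 119 and 128 CPM in control 1 and 2. The groups overlapped, with stimulated 1 between the controls, and the change was -0.20 ± 0.19 (edgeR adjusted p = 0.434). Ccr2, on chromosome 9 from 124101950 to 124113557, plus strand, had 72.4 and 108 CPM in the stimulated and 106 and 178 CPM in the control libraries. The groups overlapped, since stimulated 2 was slightly above control 1, and the change was -0.66 ± 0.31 (edgeR adjusted p = 0.159). Ccr2 did pass without control 1 (-0.99, edgeR adjusted p = 0.0171) and with no filter on low counts (edgeR adjusted p = 0.000623), and had -0.23 without control 2 (edgeR adjusted p = 0.539).

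The gut and skin receptors Ccr9 and Ccr8 were nearly absent. Ccr9, on chromosome 9 from 123678439 to 123783457, plus strand, had 6 and 12 counts in stimulated 1 and 2 and 29 and 9 in control 1 and 2, with overlapping groups and a change of -0.75 ± 0.69 (edgeR adjusted p = 0.439). Its change was 0.29 without control 1. Of the stretches of 50 bases in Ccr9 transcripts, 20.1% also occur in transcripts of other annotated genes, mainly its overlapping neighbour AC165425.1, so its counts are uncertain. For the other members that share was at most 1.91%. Ccr8, on chromosome 9 from 120092133 to 120094906, plus strand, had 0 counts in both stimulated libraries and 0 and 5 counts in control 1 and 2. Taking 3 counts as the limit that a count of 0 allows, the level over the stimulated group could be up to 0.0624 CPM, and the 5 counts of the controls have an exact 95% Poisson interval of 1.62 to 11.7 counts. Intervals and limits of this kind cover counting error only.

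**Figure D2:**
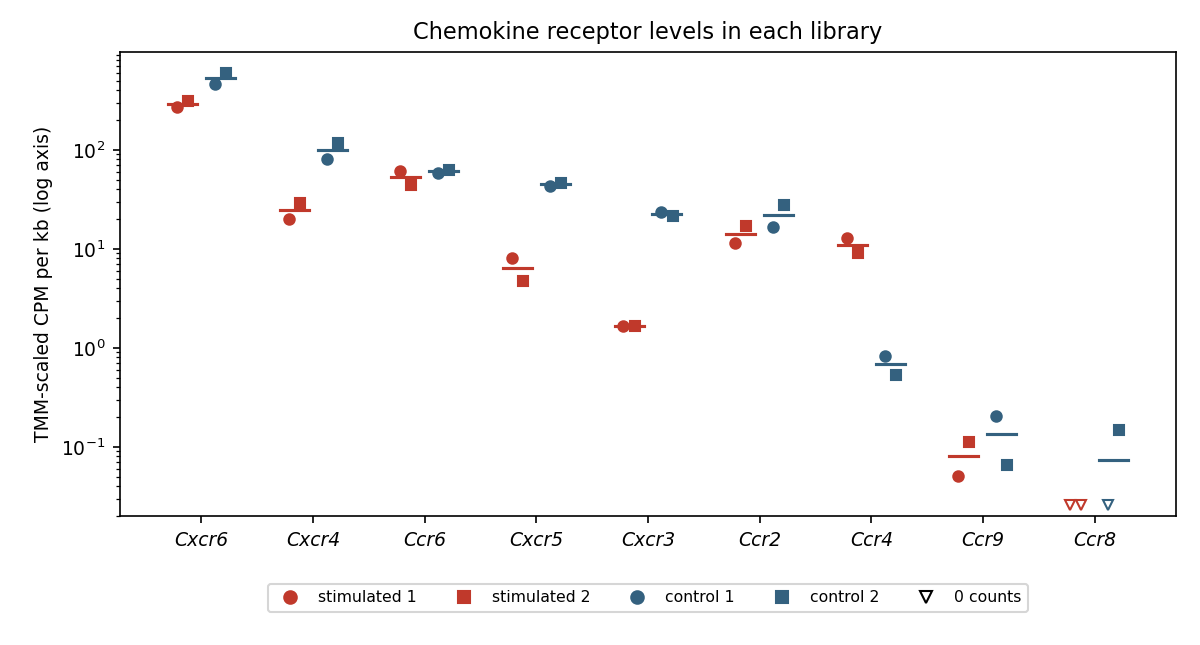
Level of each receptor as TMM-scaled CPM per kilobase of listed exon length (log axis) in stimulated and control libraries; horizontal bars are group means of 2 libraries and open triangles are libraries with 0 counts. Cxcr6 is highest in both groups, and Ccr4 lies above Cxcr3 in stimulated cells and below it in controls.

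Genes can be ranked against each other only per length, here as TMM-scaled CPM per kilobase of the listed exon length. In stimulated cells Cxcr6 led with 289 ± 28.0, followed by Ccr6 with 52.7 ± 12.8, Cxcr4 with 24.4 ± 6.27, Ccr2 with 14.1 ± 3.89, Ccr4 with 10.9 ± 2.56, Cxcr5 with 6.37 ± 2.30 and Cxcr3 with 1.67 ± 0.000413 CPM per kilobase (SD, n = 2). In control cells Cxcr6 led with 527 ± 94.9, followed by Cxcr4 with 99.1 ± 25.6, Ccr6 with 60.8 ± 3.07, Cxcr5 with 44.9 ± 2.09, Cxcr3 with 22.4 ± 1.42, Ccr2 with 22.2 ± 7.98 and Ccr4 with 0.680 ± 0.217 CPM per kilobase (SD, n = 2). Ccr9 and Ccr8 were last in both groups. Neighbours in these orders whose libraries overlapped were Ccr2 and Ccr4 in stimulated cells, and Cxcr3 and Ccr2 as well as Ccr9 and Ccr8 in controls. Thus Ccr6 stood above Cxcr4 in stimulated cells and below it in control cells, with no overlap in either group.

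The balance between receptors was also read within each library, where scaling between libraries plays no part. The ratio of Ccr4 to Cxcr3 per kilobase was 7.63 and 5.47 in stimulated 1 and 2 and 0.0355 and 0.0246 in control 1 and 2. These genes were paired for their opposite changes, so the ratio is a description. The ratio of Ccr6 to Cxcr4 was 3.09 and 1.51 in the stimulated libraries and 0.724 and 0.537 in the controls, and that of Ccr6 to Cxcr5 was 7.73 and 9.22 in the stimulated libraries and 1.35 and 1.36 in the controls.

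Cxcr6 made up most of the receptor transcripts under both conditions. It held 72.3% ± 3.28 of the CPM per kilobase summed over the 9 genes in stimulated cells and 67.8% ± 0.703 in control cells (SD, n = 2). Ccr6 held 13.3% ± 3.88 in stimulated and 7.90% ± 0.946 in control cells, while Cxcr4 held 6.08% ± 1.26 in stimulated and 12.6% ± 1.15 in control cells. Cxcr5 and Cxcr3 held small parts, with 1.61% ± 0.657 and 0.418% ± 0.0216 in stimulated cells against 5.84% ± 0.722 and 2.94% ± 0.683 in control cells. The share of Ccr4 was 2.76% ± 0.781 in stimulated and 0.0912% ± 0.0433 in control cells. The summed level of the 9 genes was 385 and 414 CPM per kilobase in stimulated 1 and 2 and 684 and 871 in control 1 and 2.

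**Figure D3:**
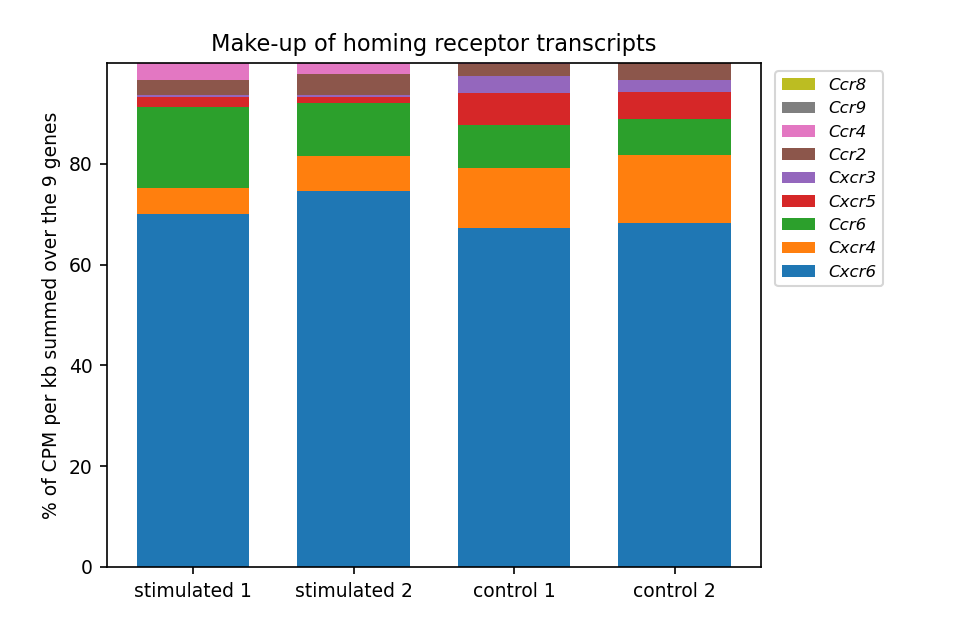
Share of each receptor (y axis, percent of the CPM per kilobase summed over the 9 genes) in each of the 4 libraries. Cxcr6 holds 70.0% to 74.6% in the stimulated libraries and 67.3% to 68.3% in the controls; Ccr8 and Ccr9 are too small to be seen.

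The sequences upstream of 3 members that changed are shown because their RefSeq gene start lies at or within 6 bases of the end listed in the count tables: Ccr4, which rose, and Cxcr4 and Cxcr6, which fell. Each window holds the 250 bases before the start (RefSeq, GRCm38.p6), read 5′ to 3′ on the strand of the gene, and capitals mark matches to the motifs named afterwards. The windows are chr9:114496545-114496794 (minus strand) for Ccr4, chr1:128592300-128592549 (minus strand) for Cxcr4 and chr9:123806227-123806476 (plus strand) for Cxcr6.
Ccr4: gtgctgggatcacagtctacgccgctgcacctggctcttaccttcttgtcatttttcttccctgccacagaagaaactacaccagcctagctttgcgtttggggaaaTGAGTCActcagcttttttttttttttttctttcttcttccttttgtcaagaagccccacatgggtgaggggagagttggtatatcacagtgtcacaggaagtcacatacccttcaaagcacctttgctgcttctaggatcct
Cxcr4: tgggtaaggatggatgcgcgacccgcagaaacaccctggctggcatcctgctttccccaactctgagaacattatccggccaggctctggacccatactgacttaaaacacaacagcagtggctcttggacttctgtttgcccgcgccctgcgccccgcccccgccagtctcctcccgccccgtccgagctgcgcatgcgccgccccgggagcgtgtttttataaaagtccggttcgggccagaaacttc
Cxcr6: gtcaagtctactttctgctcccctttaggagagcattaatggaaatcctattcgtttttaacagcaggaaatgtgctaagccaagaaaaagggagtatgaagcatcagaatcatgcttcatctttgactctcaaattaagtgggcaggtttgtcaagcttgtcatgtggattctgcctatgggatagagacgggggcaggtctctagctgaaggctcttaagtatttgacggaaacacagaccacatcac

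A set of 6 motifs was searched on both strands in the upstream windows of all members with a RefSeq entry, 8 of the 9 genes with 9 windows. They were the NF-kB motif, AP-1 (TGANTCA), STAT (TTCNNNGAA), ROR (AGGTCA), T-box (AGGTGTGA) and RUNX (TGTGGTT). Ccr4 held 1 AP-1 match, TGAGTCA, from base -143 to base -137 before the start; 6.75% of the 32851 windows in the RefSeq table held that motif. Ccr6 has 2 starts. The window before the first held 2 STAT matches, TTCAAAGAA and TTCCAAGAA, and 1 ROR match read as TGACCT on the strand of the gene, and the window before the second held NF-kB matches that overlap each other, GGGGAATTCC and GGGAATTCCC. Of all windows, 7.02% held the STAT motif, 14% the ROR motif and 7.25% the NF-kB motif. The windows of Cxcr3, Cxcr4, Cxcr6, Ccr2, Ccr8 and Ccr9 held none of these 6 motifs, which says only that these letters are not in these bases.

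Position was shared by many of the receptors, since 6 of the 9 lie on chromosome 9. Ccr9, Cxcr6 and Ccr2 belong to the receptor cluster there, in a stretch of 435.1 kb from the listed start of Ccr9 to the end of Ccr2. The RefSeq start of Ccr9 lies 88772 bases downstream of the listed one. Lztfl1 falls in the stretch only by the listed start. The genes examined in the stretch were chemokine receptors and genes within 100 kb of a member. Among them, besides Cxcr6, those called were Xcr1, the receptor of XCL1, Fyco1 and Lztfl1, a ciliary trafficking gene, and all were lower. Xcr1 had 10.8 and 13.96 CPM in stimulated 1 and 2 and 26.1 and 54.0 CPM in control 1 and 2. Its change was -1.70 ± 0.38 (edgeR adjusted p = 0.0225). The adjusted p of Xcr1 in edgeR was 0.137 without stimulated 1 and 0.0865 without stimulated 2, and its change was -1.08 without control 2. Lztfl1 changed by -1.28 ± 0.16 (edgeR adjusted p = 0.00183). Ccr1 and Ccr3, of the same stretch, had 1.58 ± 0.53 and -1.78 ± 0.74 at levels under 1 CPM per group and did not pass (edgeR adjusted p = 0.0552 and 0.105). Ccr1 passed without control 2 (2.26, edgeR adjusted p = 0.0445) and without stimulated 2 (1.90, 0.0498) but not without stimulated 1 (1.20) or control 1 (1.12). Ccr3 passed without stimulated 2 (-3.73, edgeR adjusted p = 0.0310) and had -0.93 without stimulated 1.

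**Figure D4:**
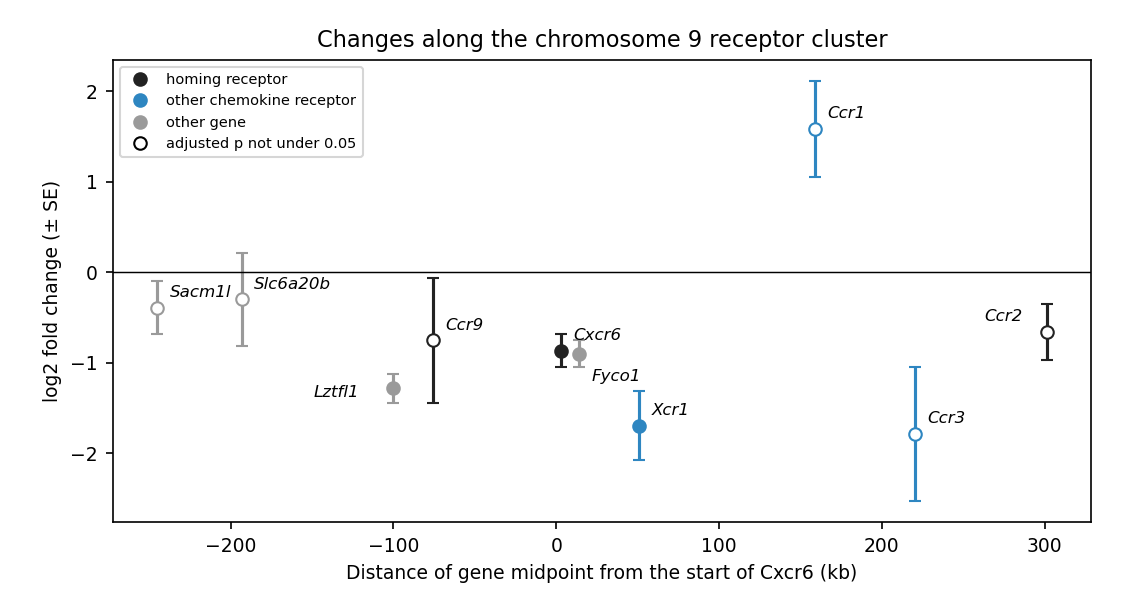
Log2 fold change of stimulated over control cells (y axis, ± SE) of tested genes along the chromosome 9 receptor cluster. The x axis is the distance of the gene's midpoint from the start of Cxcr6 in kilobases. Genes shown are chemokine receptors or lie within 100 kb of a member. Cxcr6, Fyco1, Xcr1 and Lztfl1 passed an edgeR adjusted p under 0.05, all below 0; Ccr1 at 1.58 did not pass.

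Of 16 other chemokine receptor genes listed, 8 were tested, 3 fell, none rose and 5 did not pass. Over all genes tested, 18.3% were called lower, 17.5% higher and 35.8% in either direction. The median change of the 8 was -1.44. Ccrl2, a chemerin-binding receptor that does not signal through G proteins, fell to 0.336 ± 0.0826 CPM in stimulated cells, against 2.36 ± 0.880 CPM in control cells (-2.81 ± 0.45, edgeR adjusted p = 0.00409; SD, n = 2 each). Ccr10, a receptor of skin and mucosal homing, had 3.41 ± 0.742 CPM in stimulated and 7.79 ± 0.626 CPM in control cells (-1.19 ± 0.26, edgeR adjusted p = 0.0132, and 0.0598 without stimulated 1). Ccr7, the receptor of lymph node entry, had 20.3 and 23.6 CPM in the stimulated and 15.7 and 27.6 CPM in the control libraries (0.016 ± 0.27, edgeR adjusted p = 0.970). Cx3cr1, the fractalkine receptor gene near Ccr8, had a wide -2.55 ± 0.98 (edgeR adjusted p = 0.128; 0.00167 in DESeq2). With each library left out in turn the change of Cx3cr1 ran from -3.94 without stimulated 2 to -1.42 without control 2 and passed in none, with -1.83 without stimulated 1 and -3.17 without control 1. Ackr4, a scavenging receptor, had -0.19 ± 0.45.

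Ligands of the receptors were examined in the same cells. Of 16 ligand genes, 9 were tested, 5 rose, 1 fell and 3 did not pass, with a median change of 2.55. Among all genes tested, 17.5% were called higher and 18.3% lower, with a median change of -0.016. The tested CXCR3 ligands rose while Cxcr3 fell: Cxcl10 had 70.6 and 58.2 CPM in the stimulated and 5.81 and 4.03 CPM in the control libraries (3.71 ± 0.23, edgeR adjusted p = 0.000239). Cxcl9 had 208 and 127 counts in the stimulated libraries and 2 and 2 counts in the controls (6.58 ± 0.45, edgeR adjusted p = 0.000271). Of the CXCR4 ligands, Mif, a cytokine that also binds CD74, rose by 1.64 ± 0.14 (edgeR adjusted p = 0.000535). Cxcl12 fell by 1.61 on the log2 scale, with an SE of 0.36, at a low 0.566 ± 0.128 CPM in stimulated and 1.73 ± 0.107 CPM in control cells (edgeR adjusted p = 0.0140; 0.0701 without stimulated 1 and 0.0508 without control 2).

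The CCR4 ligand Ccl17 rose together with its receptor. It had 187 and 484 counts in stimulated 1 and 2 and 33 and 32 counts in control 1 and 2 (3.70 ± 0.56, edgeR adjusted p = 0.00593). Leaving out stimulated 1 gave Ccl17 a change of 4.27 and leaving out stimulated 2 gave 2.78, and its call ended without control 1 (edgeR adjusted p = 0.124) or control 2 (0.114). The other CCR4 ligand, Ccl22, was not tested and had 7 and 36 counts in the stimulated libraries against 2 and 0 in the controls, a ratio of 26.6 with an exact 95% counting interval of 6.92 to 226. Ccl20, the ligand of CCR6, had 30 and 21 counts in the stimulated and 2 and 0 in the control libraries, which is a ratio of 31.5 (exact 95% counting interval 8.28 to 267; edgeR adjusted p = 0.00430). The fitted change of Ccl20 was 4.79 ± 0.78 and 3.90 without control 2; without control 1 it was 7.77, a value set by the prior count because the remaining control had 0 counts. Ccl1, the ligand of CCR8, had 80 and 434 counts in the stimulated and 53 and 59 in the control libraries and did not pass (2.55 ± 0.97, edgeR adjusted p = 0.126). The value for Ccl1 rests on stimulated 2: it was 3.33 without stimulated 1 (edgeR adjusted p = 5.9e-05) and 0.77 without stimulated 2 (0.157). Ccl25 of CCR9 and Cxcl16 of CXCR6 had -0.40 ± 0.24 and 0.43 ± 0.55. The CCR2 ligands Ccl2 and Ccl12 had 0 counts in all 4 libraries, and Ccl7 had 1 and 0 in the stimulated and 0 and 0 in the control libraries.

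**Figure D5:**
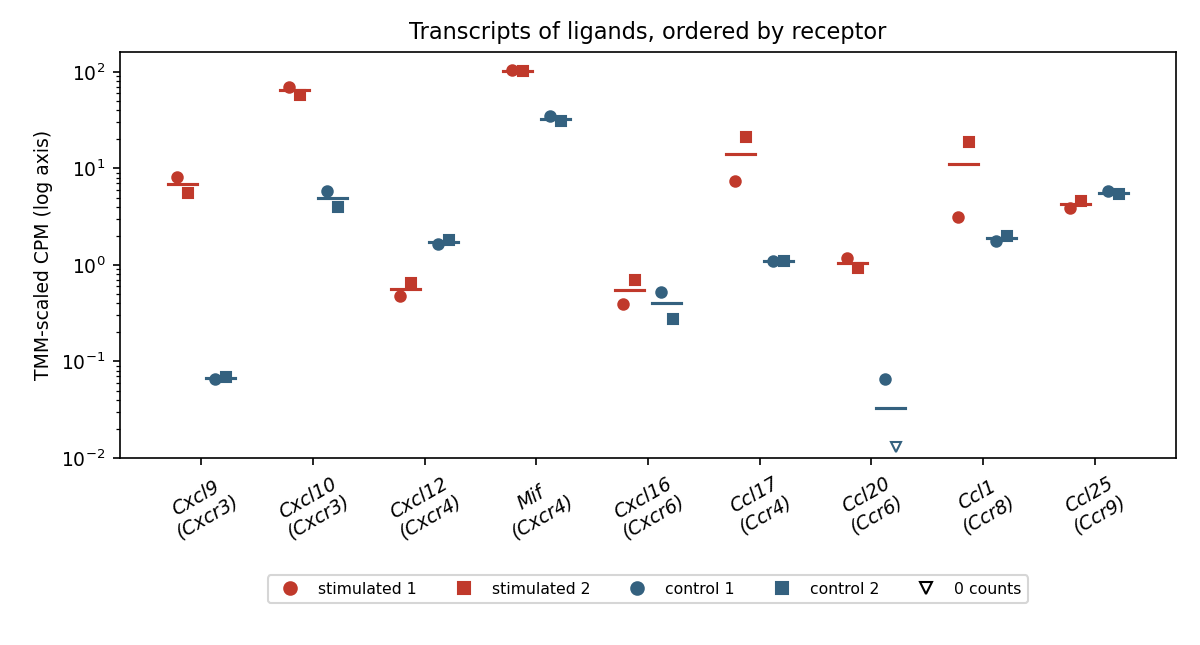
TMM-scaled CPM (log axis) of the 9 ligand genes tested, each with its receptor in brackets, in stimulated and control libraries; bars are means of 2 libraries and an open triangle is a library with 0 counts. Cxcl9, Cxcl10, Mif, Ccl17 and Ccl20 passed the test as higher in stimulated cells, and Cxcl12 as lower.

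Genes that carry and stop the receptor signal were lower in part. Of 30 listed, 29 were tested, 2 rose, 11 fell and 16 did not pass, with a median change of -0.49. Of all tested genes, 17.5% were called higher and 18.3% lower, and their median change was -0.016. Among the genes that end signalling, RGS proteins that switch off G proteins, GRK kinases and arrestins, 5 of 13 tested fell and none rose, beside 18.3% of all tested genes called lower and 35.8% called in either direction. Rgs10 had 29.5 ± 5.27 CPM in stimulated and 160 ± 0.902 CPM in control cells (-2.44 ± 0.17, edgeR adjusted p = 0.000272), and Rgs3 changed by -1.53 ± 0.15 (edgeR adjusted p = 0.000748). Rgs1 changed by -2.42 ± 0.41 (edgeR adjusted p = 0.0103), with calls that ended without control 1 (0.0560) or control 2 (0.0806) and a change of -3.05 without stimulated 2, and Rgs2 by -2.15 ± 0.35 (edgeR adjusted p = 0.00740). Grk6 changed by -0.57 ± 0.13 (edgeR adjusted p = 0.0167; 0.0502 without stimulated 1 and 0.110 without stimulated 2). On the signalling side, Gng2, a G protein gamma subunit, changed by -1.33 ± 0.16 (edgeR adjusted p = 0.00160) and Pik3cg, the G protein-driven PI3 kinase, by -1.26 ± 0.16 (edgeR adjusted p = 0.00167). The risers of the list were Gnaq, a G protein alpha subunit (1.11 ± 0.14, edgeR adjusted p = 0.00178), and Pik3r5, the regulatory partner of Pik3cg (2.65 ± 0.64, edgeR adjusted p = 0.0201). Pik3r5 did not pass without stimulated 1 (1.55, edgeR adjusted p = 0.0856), control 1 (0.0661) or control 2 (0.0900), and had 3.28 without stimulated 2. The abundant Gnai2, the main inhibitory alpha subunit of lymphocytes, and Rac2, a GTPase of migration, had -0.35 ± 0.16 and 0.27 ± 0.20 and did not pass.

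Adhesion and egress genes that act beside the receptors moved both ways. Of 18 listed, 16 were tested, 3 rose, 5 fell and 8 did not pass, with a median change of -0.061. Beside these counts, 17.5% of all tested genes were called higher and 18.3% lower. The chains of the gut-homing integrin alpha4 beta7 both fell, Itgb7 by 0.82 and Itga4 by 1.88 on the log2 scale (edgeR adjusted p = 0.0107 and 0.0262; Itgb7 0.0513 without stimulated 2, Itga4 0.0733 without stimulated 1 and 0.0757 without control 2). The change of Itga4 was -2.63 without stimulated 2. Itga4 was scarce, with 0.892 ± 0.534 CPM in stimulated and 3.26 ± 1.23 CPM in control cells (SD, n = 2 each). Itgb7 had 1260 ± 167 CPM in stimulated and 2223 ± 36.4 CPM in control cells. The level of the joined integrin was not measured. S1pr1 and Cd69, which act for and against tissue exit, rose by 3.51 ± 0.30 and 0.97 ± 0.17 (edgeR adjusted p = 0.000580 and 0.00520). Cd44 and Gcnt1 had 0.24 ± 0.21 and 0.33 ± 0.18 and did not pass.

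Genes whose pattern over the 4 libraries was nearest to each called receptor were found among 9489 genes of at least 5 CPM, by the root mean squared difference of centred log2 CPM. The nearest to Ccr4 were Serpina3h (0.0652) and the CXCR3 ligand Cxcl10 (0.0871). Cxcr3 was nearest to Cd101 (0.100), a surface inhibitory receptor, and Col17a1 (0.122). Cxcr5 was nearest to Tfap2c (0.0973) and the IL-1 receptor gene Il1r1 (0.144), Cxcr4 to the adaptor gene Lax1 (0.0396) and AI504432 (0.0455), and Cxcr6 to Pank1 (0.0119) and Rragb (0.0140). With 4 libraries in 2 groups, such likeness mostly reflects a similar fold change.

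The identity of the cells was checked on marker lists. All 12 ILC3 markers were tested, among them Il23r and Kit, and 6 fell, 1 rose and 5 did not pass. Beside them, 18.3% of all tested genes were called lower and 17.5% higher. Markers of the line thus moved with the same contrast as its receptors. T cell markers summed to 49.0 to 54.5 CPM in stimulated and 134 to 155 CPM in control libraries, with Cd8b1 at 0 counts in all 4 libraries. Of 6 tested, only Lat, a signalling adaptor gene, was called: it had 20.8 and 30.2 CPM in the stimulated and 102 and 116 CPM in the control libraries and made up most of the difference in the sum. The groups overlapped for Cd3d, with 14.5 and 11.1 CPM in the stimulated and 18.0 and 9.77 CPM in the control libraries. Myeloid markers summed to 4.35 to 10.1 CPM in stimulated and 3.14 to 5.21 CPM in control libraries, with Lyz2 and Cd14 at 0 and 1 of 5 tested higher, the macrophage gene Adgre1 with 44 and 187 counts in the stimulated and 2 and 0 counts in the control libraries. B cell markers summed to 1.74 to 2.10 CPM in stimulated and 3.25 to 4.17 CPM in control libraries, and epithelial markers to 0.306 to 0.396 and 1.02 to 1.39 CPM. NK cell markers summed to 614 to 852 CPM in stimulated and 377 to 383 CPM in control libraries, with Klra8 at 0. Of 5 tested, Gzmb, a granzyme gene, was higher (779 and 516 CPM in the stimulated and 178 and 147 CPM in the control libraries) and Klrb1c was lower (38.9 and 49.6 CPM against 164 and 182 CPM). The stromal markers summed to 32.4 to 42.7 CPM in stimulated and 28.2 to 32.7 CPM in control libraries. Pecam1 made up most of each sum, with 41.3 and 30.2 CPM in the stimulated and 25.2 and 19.6 CPM in the control libraries. Of 3 tested, Pecam1 was higher (edgeR adjusted p = 0.0454) and Col3a1 was lower (-2.73 ± 0.50, edgeR adjusted p = 0.0084). The part of these markers in the receptor changes was not tested.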

How the data were processed

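Each deposited table gives, per the file headers, a count, a CPM and an RPKM for 41388 Ensembl genes of 1 library. The authors' count is a whole number, the deposited CPM equals the count scaled to the library total, and the deposited RPKM equals that CPM per kilobase; both were checked on the values and not used further. Per the submitters' processing notes the tools were STAR, Subread and featureCounts, with versions, genome build and use of strand not given in the sources used here. Symbols came from GENCODE M21 (40254 identifiers matched).

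Counts were fitted with edgeR 4.0.16 (R 4.3.3, limma 3.58.1): filterByExpr, TMM, robust quasi-likelihood, treatment as the only term; the common biological coefficient of variation was 18.4%. Libraries were grouped by their treatment labels. Fits were tested on simulated counts of independent libraries with the same biological coefficient of variation for every gene. Deviations shared between libraries were not simulated. Alternatives were other scalings, filters and tests (DESeq2 1.42.0, limma-voom), a replicate block and each library left out. Coordinates are those of the tables, and promoters come from RefSeq (GRCm38.p6).

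The members and lists were chosen with earlier results of these data known. The naming rule took 71 genes: all members, every other chemokine receptor tested, from each list of ligands, signalling and adhesion genes the 4 called genes of lowest adjusted p and the 2 not called that were most abundant, tested genes within 100 kb of a member, the 2 nearest patterns of each called member, and Il22 and Il17f. The other tested ligands and the called Rgs and Grk genes were added after their values were seen, as were Ccl22, Ccl2, Ccl7, Ccl12, Gnaq, Pik3r5, Adgre1, Lat, Cd3d, Gzmb, Klrb1c, Pecam1 and Col3a1. Nearest patterns used log2 of CPM plus 0.5.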

Additional observations from a re-analysis of the deposited data

How the results depend on the processing

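The calls of Cxcr3, Cxcr4, Cxcr5, Cxcr6 and Ccr4 kept their direction and their side of the threshold in all 13 alternatives. With libraries left out, 1593 to 2001 genes were called higher and 1665 to 2035 lower, fewer samples entering those tests, and 4 to 5 members were lower. Total-count scaling moved the median change of all genes to -0.11.

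With the kind of title as a replicate block, 3986 genes were higher and 4000 lower, 1 member was higher and 5 lower, Ccr2 (-0.64, edgeR adjusted p = 1.55e-07) being the added one; with 4 libraries 1 residual degree of freedom is left, so the spread comes largely from the other genes. The labels do not say that the titles mark a shared batch. Deviations of libraries with the same kind of title correlated at 0.678 over 9938 genes. Within each kind of title the log2 ratio of Ccr2 was -0.55 and -0.73, that of Ccr6 0.076 and -0.53 and that of Ccr9 -2.02 and 0.77.

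The named genes whose sign changed had not passed the test. With libraries left out, values ran from -0.48 to 0.050 for Ccr6, -1.38 to 0.29 for Ccr9, -0.34 to 0.48 for Ccr7, -0.68 to 0.20 for Ackr4, -0.62 to 0.20 for Ddx6, -0.40 to 0.24 for Glb1, -0.93 to 0.31 for 4930506C21Rik, -0.033 to 0.38 for Sft2d1, -1.23 to 0.29 for Slc6a20b and -1.34e-05 to 0.98 for Cxcl16. Ccr7 had -0.031 with upper-quartile and -0.071 with total-count scaling. The cause was not tested. Levels per coding length were not computed here. Members under 1 CPM are limited by depth.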

Other observations

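Other genes close to the receptors changed in both directions. Within 100 kb of a member by the listed coordinates lay 28 other tested genes, of which 7 were higher, 5 lower and 16 did not pass, beside 35.8% called among all genes. Near Ccr6, which did not pass, Fgfr1op, a centrosomal gene, had 97.6 and 99.4 CPM in stimulated 1 and 2 and 40.1 and 41.7 CPM in control 1 and 2 (1.27 ± 0.13, edgeR adjusted p = 0.000912). Near Ccr8, the ribosomal protein gene Rpsa had 19.0 and 27.1 CPM in the stimulated and 8.20 and 10.2 CPM in the control libraries (1.32 ± 0.23, edgeR adjusted p = 0.00595). Gm24044, Gm26448 and Snora62, also counted as higher, lie inside the listed span of Rpsa and are not separate positions. They changed by 1.41, 1.27 and 1.38, and their calls held in 10, 6 and 9 of 13 alternatives. Whether they share reads with Rpsa was not tested. Near Ccr4, only Crtap passed, with 0.68 ± 0.15 (edgeR adjusted p = 0.0133, and 0.0854 without stimulated 1), while Glb1, Tmppe, Trim71 and Cnot10 did not. Near Cxcr5, C030014I23Rik changed by -2.25 ± 0.28 (edgeR adjusted p = 0.00178) and Bcl9l, whose transcripts share 1.86% of the 50-base stretches of Cxcr5, by -0.80 ± 0.25 (edgeR adjusted p = 0.0444). The call of Bcl9l ended in 5 of 13 alternatives.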
